A study of Capra hircus with 9 samples.

Results

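The cell cycle pathway of the goat mammary gland was followed through 3 stages of the lactation cycle. Its members were the transcripts that the authors' pathway table lists under the name Cell cycle, looked up in the authors' table of differential expression. The pathway row lists 138 transcripts, and all 138 were present in that table. Transcripts of 1 assembled component, the unit that groups the alternative sequences of an assembly, were reduced to the transcript of highest mean over the stages. This left 123 components with 73 distinct protein descriptions, out of 6477 components, 9131 transcripts and 3630 descriptions in the table as a whole. Of the 73 descriptions, 59 name a single gene and 14 name a family, such as cyclin B, whose genes cannot be separated. Within the pathway list no expression value chose the members, beyond the pick of 1 transcript for each component. The pathway lists themselves hold almost only transcripts of the differential table, 5048 of the 5067 in any pathway. An entry among the descriptions exists for 51299 transcripts, so cell cycle genes outside the differential table are not covered here. The table itself holds mostly transcripts that differ between stages, since 93.8% of them, and 117 of the 123 members, reached an unadjusted p under 0.05 in 1 or more of the 3 comparisons. All 73 descriptions fall into the 10 roles of cell division by which the results are ordered below.

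The 9 samples are poly(A)-selected RNA of the mammary gland of dairy goats (Capra hircus) of the breed Xinong Saanen, read by short single-end sequencing. The lactation group holds 3 samples from day 100 after kidding, the dry-off group 3 samples from day 310, when milking ends, and the non-lactation group 3 samples from animals neither milking nor pregnant, with no day given. No treatment or genetic change is named for any group, and no label says that the samples came from separate animals, so the spread behind the p-values is that of these samples and may be technical. The series as a whole is about fatty acid metabolism during lactation, so the cell cycle was not its stated question. The deposited expression values are stage means, computed by the authors, in RPKM (reads scaled for the length of the transcript and the size of the library), with the authors' p-value and false discovery rate (FDR) for each pair of stages. No value per sample was analysed here, so the spread between samples enters only through the authors' p-values, and whether samples of different stages overlap cannot be given.

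A cell enters division when cyclins of the D type, with the kinases CDK4 and CDK6, phosphorylate the retinoblastoma protein, which then releases the E2F transcription factors. E2F targets include the MCM helicase and other proteins that license and copy the DNA. Cyclins A and B drive the later phases, the spindle checkpoint delays the separation of chromatids until all are attached, and the anaphase-promoting complex then marks the cyclins and securin, the guard of cohesin, for destruction. Inhibitors of the kinases and the DNA damage kinases hold the cycle back. In the mammary gland of ruminants the epithelium keeps dividing at a low rate through lactation, and the dry period is known for cell renewal. Many of these proteins also act outside dividing cells, and messenger RNA shows neither protein activity nor the rate of division.

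The cell cycle pathway was higher in dry-off than in lactation in most of its members. Of the 123 members, 88 (71.5%) rose at an FDR below 0.05 in the authors' deposited table, beside 63.4% of all components tested. No member fell by that test, beside 0.618% of all components. At an unadjusted p below 0.05 the authors' test, which is not named in the sources used here, also gave 0 falls, beside 1.14%. At that unadjusted threshold 113 members were higher, beside 85.6%. Where 3 means are given together they stand in the order lactation, dry-off, non-lactation. The median member had 1.68, 7.81 and 4.26 RPKM, and the median component of the whole table had 1.60, 7.89 and 4.84 RPKM. On the log2(mean RPKM + 1) scale, used for all log2 differences here, the median difference between dry-off and lactation was 1.66 for members (quartiles 1.43 and 2.05) and 1.62 for all components (quartiles 1.19 and 2.06). The pathway therefore lay close to the centre of a table in which nearly everything was higher in dry-off. Its lower quartile was higher than that of the table, and its upper quartile was nearly the same.

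The general shift of the table bears on every fold given here. The median transcript of the table was 4.25-fold higher in dry-off than in lactation, a log2 ratio of 2.09, and the median of 43 ribosomal protein transcripts was 2.01-fold higher, a log2 ratio of 1.00. By this plain ratio, taken without a pseudocount, 57 of the 88 members that rose lay above the table median (46.3% of the 123 members, beside 36.3% of all components), and 31 lay below it (25.2%, beside 27.7%). On the log2(mean RPKM + 1) scale, where the median transcript differed by 1.47, 75 of the 88 lay above it (61.0%, beside 40.9%) and 13 below it (10.6%, beside 23.1%). This second count was added after the data were seen. The side of the median on which a member falls thus depends on the scale, and the authors' test did not test against that median. All 88 also rose at least 2-fold, so that 71.5% of the 123 members met both conditions, beside 61.1% of all components. At an FDR below 0.01 the count was 30 members (24.4%), beside 15.6%.

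Milk transcripts moved opposite to the pathway in the same tables. LALBA and GLYCAM1, 2 genes of milk secretion, held 49.9% of all summed means in lactation, 0.523% at dry-off and 21.5% in the non-lactation group. The members together summed to 578, 2313 and 1316 RPKM. This was 0.346%, 0.894% and 0.663% of the summed means of all transcripts. With LALBA and GLYCAM1 left out of the total, the shares were 0.691%, 0.899% and 0.844%. No other milk gene was left out, and CSN2 and CSN3, also on the list of milk genes, are not represented here. These totals cover the transcripts of the differential table alone, not all RNA of the gland. The share of the pathway was thus lowest in lactation with and without LALBA and GLYCAM1, by a smaller margin without them. The part of the milk transcripts in the rise of the members was not tested. In tissue samples such as these, fewer cells of a type and less RNA per cell cannot be told apart.

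**Figure D1:**
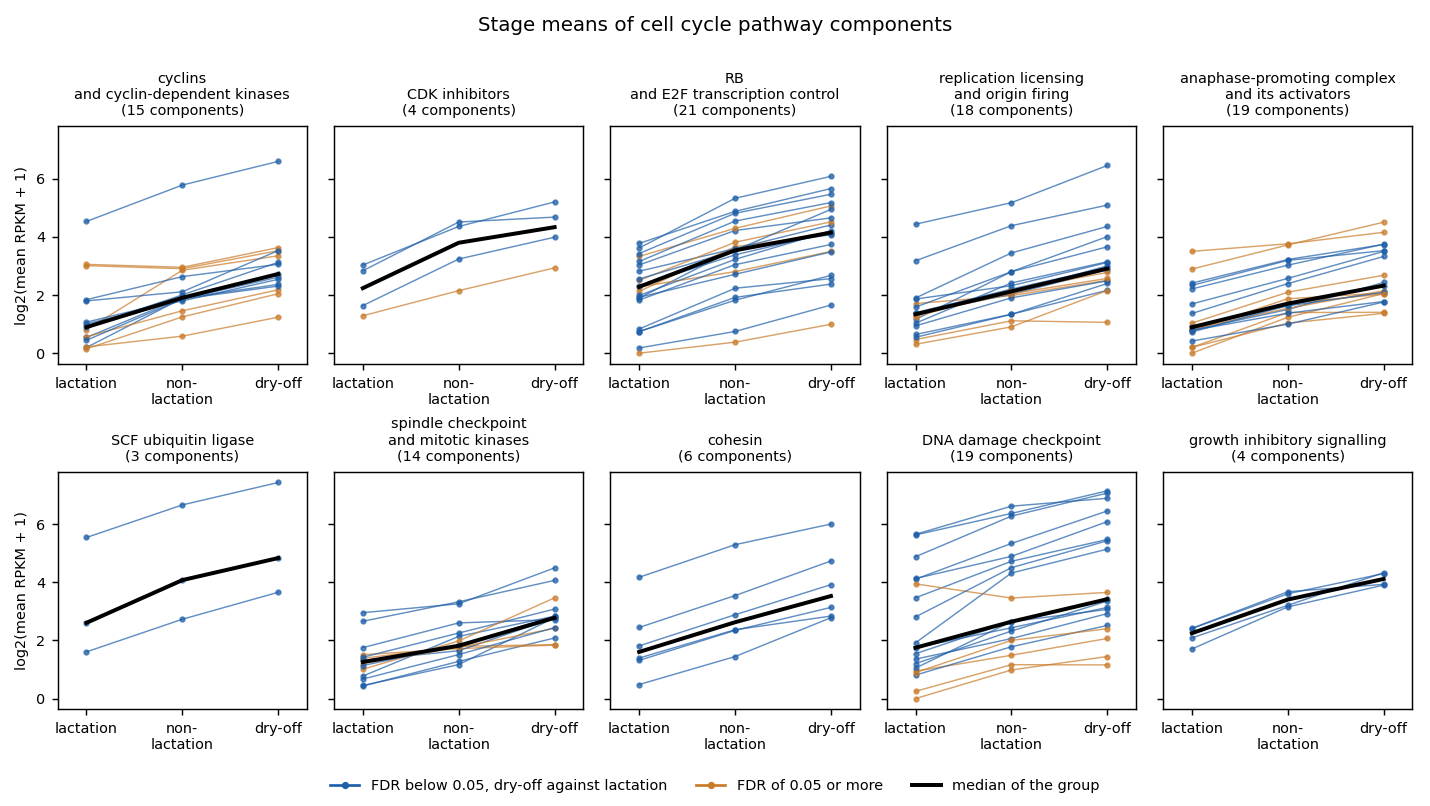
Each thin line joins the authors' mean RPKM of 1 component in lactation, non-lactation and dry-off, as log2(mean RPKM + 1), in 1 panel for each of the 10 roles. Blue lines had an FDR below 0.05 for dry-off against lactation in the authors' deposited table, orange lines did not, and the black line joins the medians of the role. In 118 of the 123 components the non-lactation mean lies between the other stages.

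The counts of components risen in each role stand against the 63.4% of all components that rose. Of the cyclins and cyclin-dependent kinases, 9 of 15 components (60.0%) rose from lactation to dry-off, none fell, and the median difference was 1.73. CDK4 (comp24086_c0), the kinase that works with the D cyclins, had 22.2 RPKM in lactation, 96.2 RPKM at dry-off and 54.2 RPKM in the non-lactation group, and its rise was 4.34-fold (FDR 0.0197) by the authors' deposited table. It was the most abundant component of the role in every stage. Cyclin A (comp1187_c0), which acts in DNA replication and the approach to mitosis, had 0.145, 4.16 and 2.71 RPKM (FDR 0.0178, the authors' deposited table). The ratio of 28.7-fold rests on a lactation mean far below 1 RPKM. Of the 3 cyclin A components 2 rose, and comp32735_c0, with 0.483, 3.54 and 1.75 RPKM, did not pass (FDR 0.0539, the authors' deposited table). Cyclin B, the partner of the mitotic kinase, had 4 components, of which 2 rose. It rose in comp5212_c0 from 0.361 to 3.96 RPKM (FDR 0.00733) and in comp222861_c0 from 0.863 to 7.74 RPKM (FDR 0.0257) by the authors' deposited table, with non-lactation means of 2.64 and 3.02 RPKM. The other cyclin B components did not pass, with 0.109, 3.13 and 1.38 RPKM in comp23878_c1 (28.7-fold, FDR 0.0692) and 0.161, 1.36 and 0.501 RPKM in comp23878_c2 (FDR 0.0605) by the authors' deposited table. All 4 cyclin B components were below 1 RPKM in lactation, as were 8 of the 15 components of the role. Cyclin H, a subunit of the kinase that activates the CDKs, rose in comp39584_c2 from 1.02 to 4.83 RPKM (FDR 0.0146) and in comp39584_c4 from 1.10 to 5.14 RPKM (FDR 0.0207) by the authors' deposited table. The non-lactation means of these components were 2.48 and 2.65 RPKM, and their near-equal values belong to components of 1 assembly cluster, which may share reads.

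The D cyclins, which link growth signals to the cycle, had no representative transcript that passed, and they were singled out after their values were seen. CCND3 had 7.33 RPKM in lactation, 11.4 RPKM at dry-off and 6.76 RPKM in the non-lactation group in comp41635_c0 and did not pass (FDR 0.0622, the authors' deposited table). The other CCND3 component, comp39839_c0, had 7.08, 10.5 and 6.51 RPKM (FDR 0.0983, the authors' deposited table). These are the only 2 members whose mean was lowest in non-lactation and highest in dry-off. A lower-ranked transcript of comp39839_c0 had a lactation mean of 6.56 RPKM and 10.6 RPKM at dry-off and did pass in the authors' deposited table (FDR 0.0498). CCND1 and CCND2 are transcripts of 1 component, comp44888_c0, whose reads cannot be separated. CCND2, which represents it, had 0.748, 9.21 and 6.24 RPKM (FDR 0.120), and CCND1 had 1.00, 7.76 and 3.91 RPKM (FDR 0.0639), by the authors' deposited table. The difference of 2.55 for CCND2 was the largest of the role, although it did not pass.

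Of the 4 CDK inhibitors 3 rose, with a median difference of 2.01 over all 4. CDKN2C (comp35993_c2), which encodes p18 and blocks CDK4 and CDK6, had 2.11 RPKM in lactation, 14.9 RPKM at dry-off and 8.45 RPKM in the non-lactation group, a rise of 7.07-fold (FDR 0.00658) by the authors' deposited table. CDKN1B (comp10041_c0), which encodes p27, had 7.20, 35.9 and 19.6 RPKM and rose 4.99-fold (FDR 0.00693, the authors' deposited table). CDKN1C (comp35639_c0), which encodes p57, had 6.15, 24.7 and 21.9 RPKM and rose 4.02-fold (FDR 0.0285, the authors' deposited table). Its non-lactation mean was close to that of dry-off, at 90.9% of the log2 distance from lactation to dry-off. CDKN2D (comp12165_c0), which encodes p19, had 1.44, 6.66 and 3.44 RPKM and did not pass (FDR 0.0590, the authors' deposited table). Members of both the inhibitors and the kinases they bind thus rose.

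Of 21 components of RB and E2F transcription control, 16 (76.2%) rose, and the median difference was 1.89. MYC (comp39031_c0), a transcription factor that drives growth and entry into the cycle, had 11.3 RPKM in lactation, 67.0 RPKM at dry-off and 39.3 RPKM in the non-lactation group, and rose 5.93-fold (FDR 0.00708) by the authors' deposited table. It had the highest dry-off mean of the role. RB1 (comp36205_c0), the retinoblastoma protein, had 2.55, 12.4 and 7.26 RPKM and rose 4.85-fold (FDR 0.0112, the authors' deposited table). ABL1 (comp43595_c0), a tyrosine kinase that binds RB1, had 6.07, 20.3 and 11.1 RPKM and rose 3.35-fold (FDR 0.00766, the authors' deposited table). The other ABL1 component, comp22953_c0, had 3.37, 16.0 and 11.7 RPKM and did not pass (FDR 0.0890, the authors' deposited table). A histone deacetylase of the description HDAC1/2 (comp31357_c0), a corepressor recruited by RB1, had 9.79, 43.3 and 27.2 RPKM and rose 4.43-fold (FDR 0.0114, the authors' deposited table).

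The retinoblastoma-like description, which stands for the pocket proteins p107 and p130, covered 4 components, of which 3 rose. The most abundant, comp41697_c0, had 2.97, 17.6 and 8.38 RPKM (FDR 0.00535, the authors' deposited table). Another, comp323027_c0, had 0.133, 2.15 and 0.678 RPKM, and its 16.2-fold rise (FDR 0.00973, the authors' deposited table) was the largest ratio of the role. A further one, comp366495_c0, was listed at 0 in lactation, with 0.992 RPKM at dry-off and 0.2998 RPKM in the non-lactation group (FDR 0.0671, the authors' deposited table), so no fold is given. The repressor E2Fs of the description E2F4/5 were abundant, and only 1 of 3 components rose. Of the others, comp65117_c0 had 9.06, 32.6 and 18.7 RPKM and did not pass (FDR 0.130, the authors' deposited table), although its ratio was 3.60-fold.

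Of 18 components of replication licensing and origin firing, 13 (72.2%) rose, and the median difference was 1.60. The MCM proteins form the helicase ring loaded at origins, and all 6 of its subunits were present and rose. MCM3 (comp41798_c0) had 2.73 RPKM in lactation, 19.6 RPKM at dry-off and 9.94 RPKM in the non-lactation group, a rise of 7.17-fold (FDR 0.00440) by the authors' deposited table. MCM6 (comp20553_c0) had 1.24, 15.1 and 6.00 RPKM, and its 12.3-fold rise (FDR 0.0114, the authors' deposited table) was the largest among the MCM subunits. MCM2 (comp36891_c1) had 1.04, 7.87 and 4.34 RPKM and MCM7 (comp45357_c0) had 8.08, 33.2 and 19.96 RPKM, with FDRs of 0.00440 and 0.00786 in the authors' deposited table. MCM4 (comp28265_c0) and MCM5 (comp36891_c0) rose 5.82-fold and 4.13-fold (FDR 0.0414 and 0.0329, the authors' deposited table). MCM2 and MCM5 belong to 1 assembly cluster, so some of their reads may be shared.

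The components of the origin recognition complex, CDC7 and DBF4, which mark and fire the origins, had dry-off means from 1.09 to 7.70 RPKM. DBF4 (comp209349_c0), the activator of the CDC7 kinase, had 1.58 RPKM in lactation, 7.03 RPKM at dry-off and 3.27 RPKM in the non-lactation group (FDR 0.00545, the authors' deposited table). ORC2 (comp36452_c0), a subunit of the origin recognition complex, had 1.56, 6.35 and 3.08 RPKM (FDR 0.00842, the authors' deposited table). PCNA (comp22340_c0), the sliding clamp of the DNA polymerases and a common mark of proliferation, had 20.7, 87.1 and 35.3 RPKM and rose 4.20-fold (FDR 0.0226, the authors' deposited table). PCNA was singled out after its values were seen, and its non-lactation mean lay nearer to lactation than to dry-off, at 36.6% of the log2 distance. CDC45 (comp16027_c0), which completes the active helicase, had 2.27, 4.69 and 2.95 RPKM and did not pass (FDR 0.120, the authors' deposited table).

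**Figure D2:**
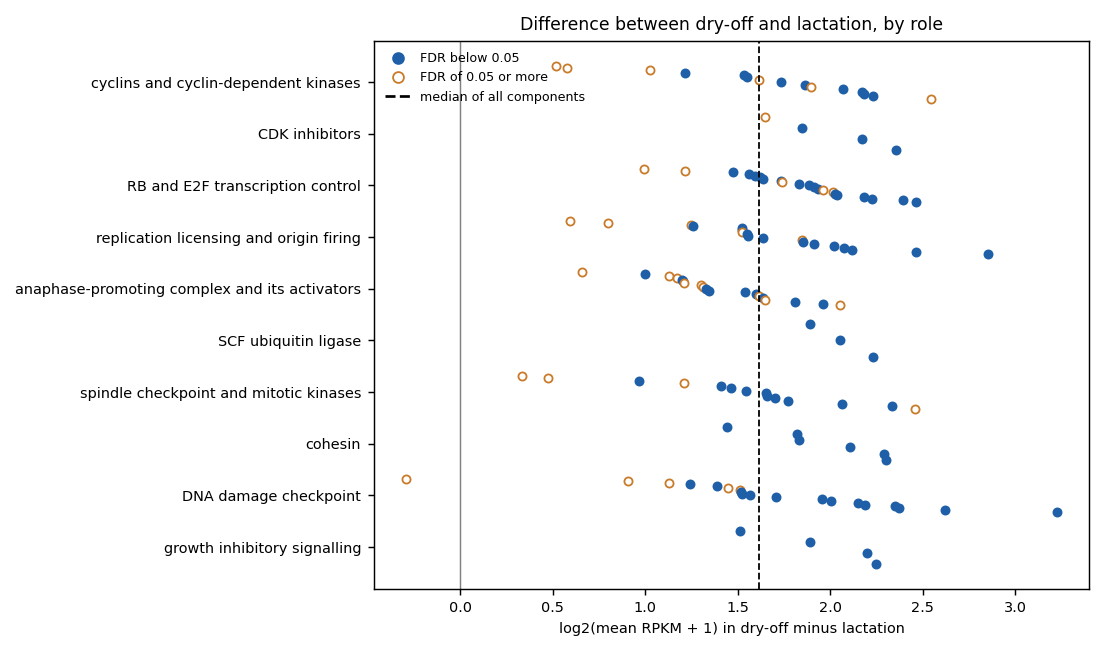
Each point is 1 component, placed by its difference in log2(mean RPKM + 1) between dry-off and lactation and grouped by role. Filled points had an FDR below 0.05 in the authors' deposited table, and the dashed line is the median of all components of the table, 1.62. All 6 cohesin components, all 3 of the SCF ligase and all 4 of growth inhibitory signalling are filled, and 1 GADD45 component lies below 0.

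The anaphase-promoting complex, the ubiquitin ligase that ends mitosis, had the lowest median difference of the 10 roles, 1.33, with 10 of 19 components (52.6%) risen. The complex was also scarce, with 11 of its 19 components below 1 RPKM in lactation. ANAPC5 (comp20312_c0), a scaffold subunit, had 4.32 RPKM in lactation, 12.4 RPKM at dry-off and 8.35 RPKM in the non-lactation group, a rise of 2.86-fold (FDR 0.00740) by the authors' deposited table. CDC27 (comp37509_c1) and CDC16 (comp41323_c0), subunits of the arm that holds the activators, rose from 0.655 to 4.01 RPKM (FDR 0.00908) and from 1.58 to 9.05 RPKM (FDR 0.0132) by the authors' deposited table, with 2.12 and 4.26 RPKM in non-lactation. ANAPC4, another subunit, had 3 components, of which 2 rose. It rose in comp40198_c0 from 2.24 to 10.3 RPKM (FDR 0.0231) and in comp14209_c1 from 0.735 to 4.40 RPKM (FDR 0.0206) by the authors' deposited table, and its non-lactation means were 4.95 and 1.83 RPKM. The remaining ANAPC4 component, comp14209_c0, had 1.05, 5.42 and 3.28 RPKM, a ratio of 5.16-fold that did not pass (FDR 0.109, the authors' deposited table). The rise of ANAPC5 was smaller than the table median on both scales.

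CDC23, another subunit of that arm, was spread over 4 components, of which 2 rose. Its component comp208231_c0 had 0.856, 3.27 and 2.09 RPKM (FDR 0.0159, the authors' deposited table). Its component comp272333_c0 was listed at 0 in lactation, with 3.15 RPKM at dry-off and 1.35 RPKM in the non-lactation group (FDR 0.0797, the authors' deposited table). The activator CDC20 (comp37711_c2), through which the spindle checkpoint acts on the complex, had 0.148, 1.59 and 1.05 RPKM and did not pass (FDR 0.0949, the authors' deposited table). CDC20 was singled out after its values were seen, and its ratio of 10.7-fold did not pass. ANAPC13 (comp36318_c0), the most abundant subunit in lactation, had 10.4, 16.9 and 12.6 RPKM and a ratio of 1.63-fold (FDR 0.0935, the authors' deposited table).

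The 3 components of the SCF ubiquitin ligase, which destroys CDK inhibitors and G1 cyclins, all rose. SKP1 (comp27144_c0), its adaptor, had the highest dry-off mean of all members, with 45.7 RPKM in lactation, 173 RPKM at dry-off and 101 RPKM in the non-lactation group (3.77-fold, FDR 0.0231, the authors' deposited table). CUL1, its scaffold, rose 5.68-fold in comp38024_c2 (2.05, 11.6 and 5.64 RPKM, FDR 0.00865) and 5.42-fold in comp31684_c0 (5.10, 27.6 and 15.9 RPKM, FDR 0.0362) by the authors' deposited table.

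Of 14 components of the spindle checkpoint and the mitotic kinases and phosphatases, 10 (71.4%) rose, and the median difference was 1.60. PLK1 (comp143372_c0), the polo-like kinase of mitosis, had 1.68 RPKM in lactation, 7.46 RPKM at dry-off and 3.78 RPKM in the non-lactation group, a rise of 4.44-fold (FDR 0.00570) by the authors' deposited table. MAD2L1 (comp23963_c0), a checkpoint protein that restrains CDC20, had 6.76, 21.6 and 8.60 RPKM and rose 3.20-fold (FDR 0.00695, the authors' deposited table). BUB3 (comp41547_c0), a checkpoint protein of the kinetochore, had 5.33, 15.8 and 9.07 RPKM and rose 2.97-fold (FDR 0.00703, the authors' deposited table). The rise of BUB3 was smaller than the table median on both scales. The wee1-like kinase (comp123320_c0), which holds the mitotic kinase inactive, had 1.20, 6.15 and 2.58 RPKM and rose 5.13-fold (FDR 0.00768, the authors' deposited table).

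BUB1 (comp2005_c0), a checkpoint kinase singled out after its values were seen, rose 16.0-fold from 0.367 to 5.89 RPKM, with 1.25 RPKM in non-lactation (FDR 0.0180, the authors' deposited table). This was the largest plain ratio of the role and rests on a lactation mean below 1 RPKM. CDC14 phosphatases, which in yeast reverse the phosphorylations of mitosis, rose in comp127614_c0 from 0.711 to 6.15 RPKM (FDR 0.00573) and in comp17983_c0 from 0.349 to 3.25 RPKM (FDR 0.0135) by the authors' deposited table. The non-lactation means of these were 3.41 and 1.43 RPKM. The other 2 CDC14 components had ratios of 1.40-fold and 1.63-fold and did not pass (FDR 0.0725 and 0.0911, the authors' deposited table). Securin, under the description PTTG (comp180759_c0), guards the cohesin ring until anaphase, and had 1.01, 10.1 and 2.95 RPKM. Its log2 difference of 2.46 was the largest of the role but did not pass (FDR 0.0694, the authors' deposited table).

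All 6 cohesin components rose, with a median difference of 1.97. RAD21 (comp41865_c0), the subunit cut at anaphase, was the most abundant, with 17.1 RPKM in lactation, 63.4 RPKM at dry-off and 38.3 RPKM in the non-lactation group (3.71-fold, FDR 0.0219, the authors' deposited table). SMC3 (comp21569_c0), which forms the ring with SMC1, had 4.46, 25.7 and 10.7 RPKM and rose 5.76-fold (FDR 0.0299, the authors' deposited table). SMC1 (comp43187_c2), a description that covers 2 genes, had 1.63, 6.16 and 4.17 RPKM and rose 3.77-fold (FDR 0.0195, the authors' deposited table). The SA-1/2 subunits, which anchor the ring, rose in all 3 of their components. Of these comp89270_c0 had 2.52, 14.2 and 6.39 RPKM (FDR 0.00580), comp22776_c0 had 1.49, 7.81 and 4.09 RPKM (FDR 0.0198) and comp182575_c0 had 0.398, 5.89 and 1.73 RPKM (FDR 0.0388) by the authors' deposited table. The rise of SMC1 was smaller than the table median on both scales. Cohesin also shapes chromatin in cells that do not divide.

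Of 19 components of the DNA damage checkpoint, 14 (73.7%) rose, and the median difference was 1.57. The 14-3-3 family, described below, makes up 6 of the 19 and all 6 rose, so this share rests in part on that family. MDM2 (comp37795_c0), a ubiquitin ligase of the damage response, had 1.92 RPKM in lactation, 7.40 RPKM at dry-off and 5.27 RPKM in the non-lactation group and rose 3.85-fold (FDR 0.00714, the authors' deposited table). CHEK2, a kinase that relays the signal of DNA breaks, had 0.753, 4.73 and 2.44 RPKM in comp39358_c0, which rose (FDR 0.0233), while comp39358_c3 of the same assembly cluster was listed at 0 in lactation with 1.73 RPKM at dry-off and 0.980 RPKM in the non-lactation group (FDR 0.0855) by the authors' deposited table.

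The 14-3-3 proteins, adaptors that bind phosphorylated targets such as the CDC25 phosphatases, were the most abundant family of the pathway, and all 6 components rose. In lactation they ranged from 10.1 to 49.4 RPKM, in dry-off from 43.6 to 141 RPKM and in non-lactation from 25.5 to 97.6 RPKM. The smallest FDR was that of comp35715_c0, with 28.5, 134 and 76.9 RPKM (4.69-fold, FDR 0.00431, the authors' deposited table). Close to it in FDR, comp41570_c0 had 16.3, 87.0 and 39.5 RPKM (5.34-fold, FDR 0.00569), and comp40240_c0 had 10.1, 43.6 and 25.5 RPKM (4.32-fold, FDR 0.00594), by the authors' deposited table. The component of highest dry-off mean, comp47501_c0, rose only 2.90-fold, with 48.7, 141 and 82.0 RPKM (FDR 0.00876, the authors' deposited table). Near-identical members of this family can exchange reads, and most of their known roles lie outside the cell cycle.

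The GADD45 description, stress proteins that restrain the mitotic kinase, held the widest contrast within the pathway. The component comp10407_c0 had 2.78 RPKM in lactation, 34.4 RPKM at dry-off and 19.0 RPKM in the non-lactation group, and its difference of 3.23 was the largest of all members (12.4-fold, FDR 0.0267, the authors' deposited table). The component comp69566_c0 had 14.4, 11.6 and 10.01 RPKM, a ratio of 0.803 that did not pass (FDR 0.183, the authors' deposited table). It was the only member with a lower mean in dry-off than in lactation. The description does not say which of the GADD45 genes either component is.

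All 4 components of growth inhibitory signalling rose, with a median difference of 2.05. SMAD4 (comp36440_c0), the shared partner of the TGF-beta signal transducers, had 4.32 RPKM in lactation, 18.7 RPKM at dry-off and 11.2 RPKM in the non-lactation group (4.34-fold, FDR 0.00518, the authors' deposited table). The receptor-activated SMADs of the description SMAD2/3 had 2.27, 13.99 and 7.92 RPKM in comp45226_c0 (6.17-fold, FDR 0.00458) and 3.25, 19.2 and 8.25 RPKM in comp31830_c0 (5.90-fold, FDR 0.00521) by the authors' deposited table. GSK3B (comp83405_c0), a kinase that marks cyclin D1 for export and destruction, had 4.35, 14.3 and 11.8 RPKM and rose 3.29-fold (FDR 0.0191, the authors' deposited table).

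Several proteins were represented by more than 1 component, and these components did not always give the same answer. Of the 73 descriptions, 31 had several components, 81 in all. In 11 of the 31 every component rose, in 18 some did, and in 2, CCND3 and ORC4, none did. At least 1 component rose for 63 of the 73 descriptions, a count to which several components give several chances. No matching counts over all descriptions of the table are given here. Some pairs were nearly equal, as for ORC2, whose 2 components both differed by 1.52 between dry-off and lactation, and for CCNH, with 1.53 and 1.55. Others were far apart, as for CDC25B, the phosphatase that activates the CDKs, whose components differed by 2.37 (comp46055_c0, FDR 0.0299) and 0.91 (comp45839_c0, FDR 0.0787) by the authors' deposited table. The 2 ORC3 components had the same difference of 1.85 and still fell on different sides of the threshold, with FDRs of 0.0177 and 0.0881 in the authors' deposited table. Components of 1 description can be fragments of 1 gene or copies from several genes, so they are not counted as independent.

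**Figure D3:**
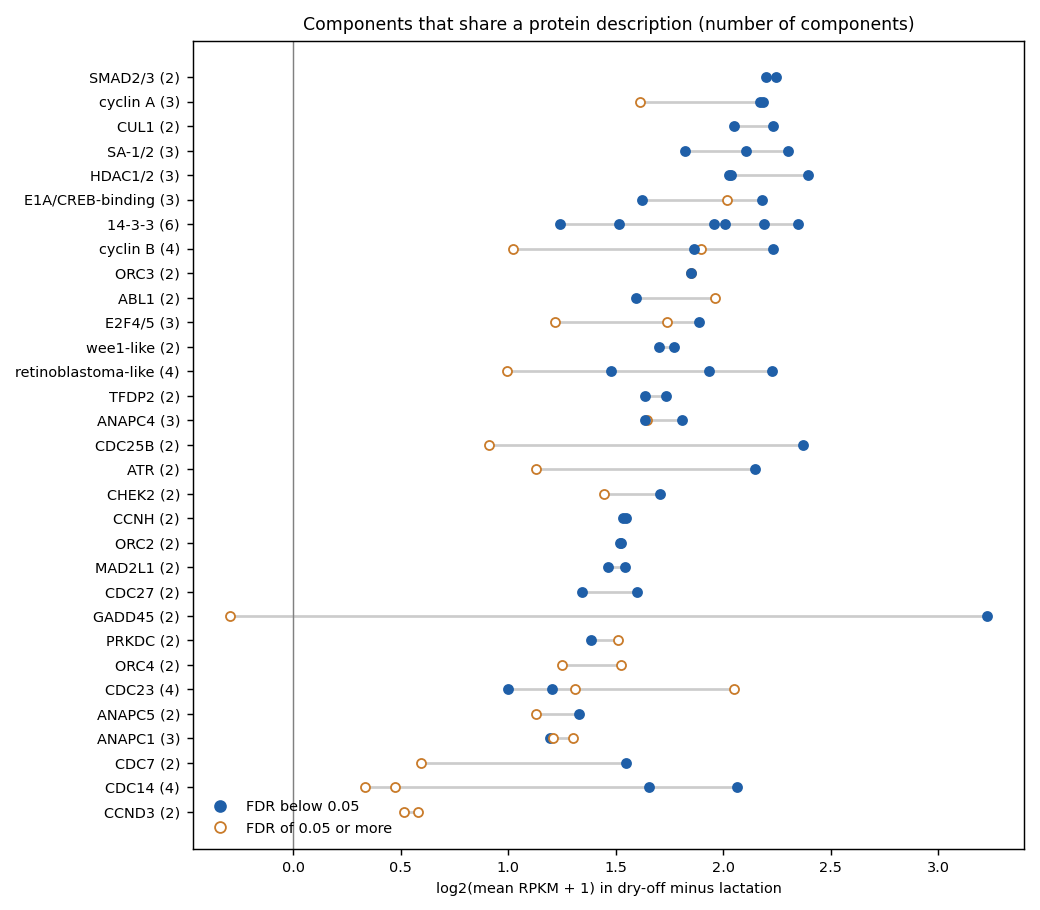
Each row is 1 of the 31 protein descriptions with several components, with the number of components in parentheses, and each point is 1 component placed by its difference in log2(mean RPKM + 1) between dry-off and lactation. Filled points had an FDR below 0.05 in the authors' deposited table. The GADD45 components span from -0.29 to 3.23, while the ORC2, ORC3 and CCNH components lie almost on top of each other.

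No member differed between non-lactation and either other stage at an FDR below 0.05 in the authors' deposited table. Against lactation, 0 of 123 members were higher, beside 0.0155% of all components, and 0 were lower, beside 0% of all components. At an unadjusted p below 0.05 the authors' test gave 54 members (43.9%) higher in non-lactation, beside 41.4% of all components, and 0 lower, beside 0.216%. Against dry-off, 0 members were higher and 0 lower, each beside 0% of all components. At an unadjusted p below 0.05 the authors' test gave 70 members (56.9%) lower in non-lactation than in dry-off, beside 38.1% of all components, and 0 higher, beside 1.78%. These comparisons share samples with the comparison of dry-off and lactation. The median difference from lactation to non-lactation was 0.97 for members and 1.00 for all components, and from dry-off to non-lactation it was -0.75 and -0.62.

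Some members had small unadjusted p-values for non-lactation against 1 or both of the other stages. CUL1 (comp38024_c2) had p = 0.00255 for non-lactation against lactation and p = 0.000163 against dry-off (FDR 0.154) by the authors' deposited table. MYC had p = 0.00139 and p = 0.00394 in the same 2 comparisons of the authors' deposited table. MAD2L1 (comp23963_c0) had p = 0.255 against lactation and p = 0.000860 against dry-off in the authors' deposited table, and its non-lactation mean lay at 19.9% of the log2 distance from lactation to dry-off. CDK7 (comp6565_c0), the kinase that activates the CDKs, had 2.48 RPKM in lactation, 10.6 RPKM at dry-off and 3.33 RPKM in the non-lactation group, a position of 18.1%. By their means CUL1 and MYC in non-lactation lay between the other stages, an order found in 118 of the 123 members. MAD2L1 and CDK7 lay there too, but close to their lactation mean. None of these components passed an FDR below 0.05 for non-lactation against either other stage. CDK7 and these p-values were singled out after their values were seen.

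**Figure D4:**
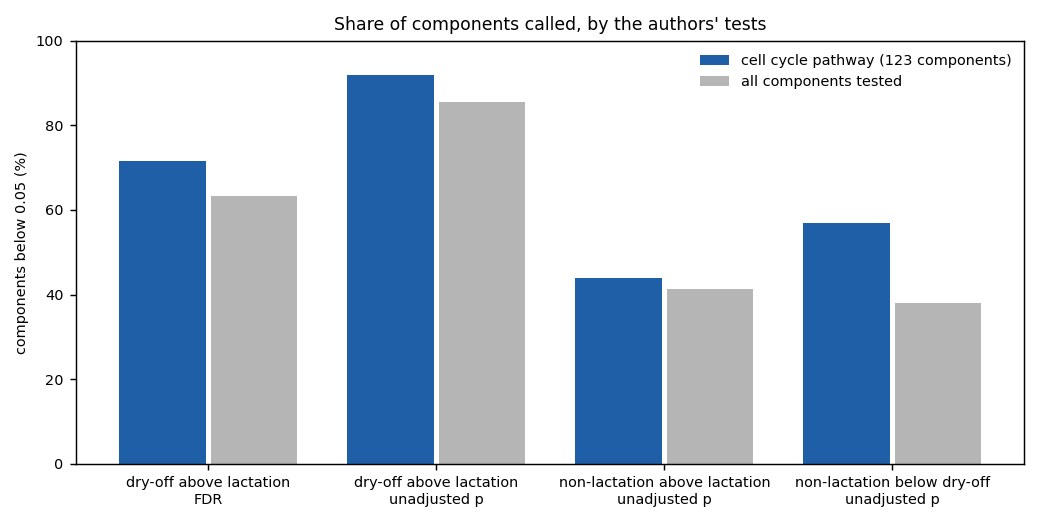
Bars give the percentage of components below 0.05 by the authors' tests, for the 123 members (blue) and for all components tested (grey), in the direction named under each pair. The pair for dry-off above lactation at the FDR stands at 71.5% and 63.4%, and the pair for non-lactation below dry-off at the unadjusted p at 56.9% and 38.1%.

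The order of the stages was nearly uniform. The mean was lowest in lactation, intermediate in non-lactation and highest in dry-off in 118 of 123 members (95.9%), and the same order held in 90.7% of all components. The non-lactation mean was the highest in 2 members, CDC7 (comp18361_c1) with 0.384, 1.09 and 1.16 RPKM and CDC25B (comp45839_c0) with 0.189, 1.23 and 1.25 RPKM in lactation, dry-off and non-lactation. Both had almost the same mean in dry-off and non-lactation, with p = 0.728 and p = 0.973 between these stages in the authors' deposited table. Over the 122 members higher in dry-off, the non-lactation mean lay at a median of 57.8% of the log2 distance from lactation to dry-off (quartiles 48.1% and 66.1%), and over all such components at 62.1% (quartiles 50.7% and 74.1%). By role the median position ran from 47.6% for the spindle checkpoint and mitotic kinases to 64.6% for growth inhibitory signalling and for the CDK inhibitors. The differences between roles were not tested.

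**Figure D5:**
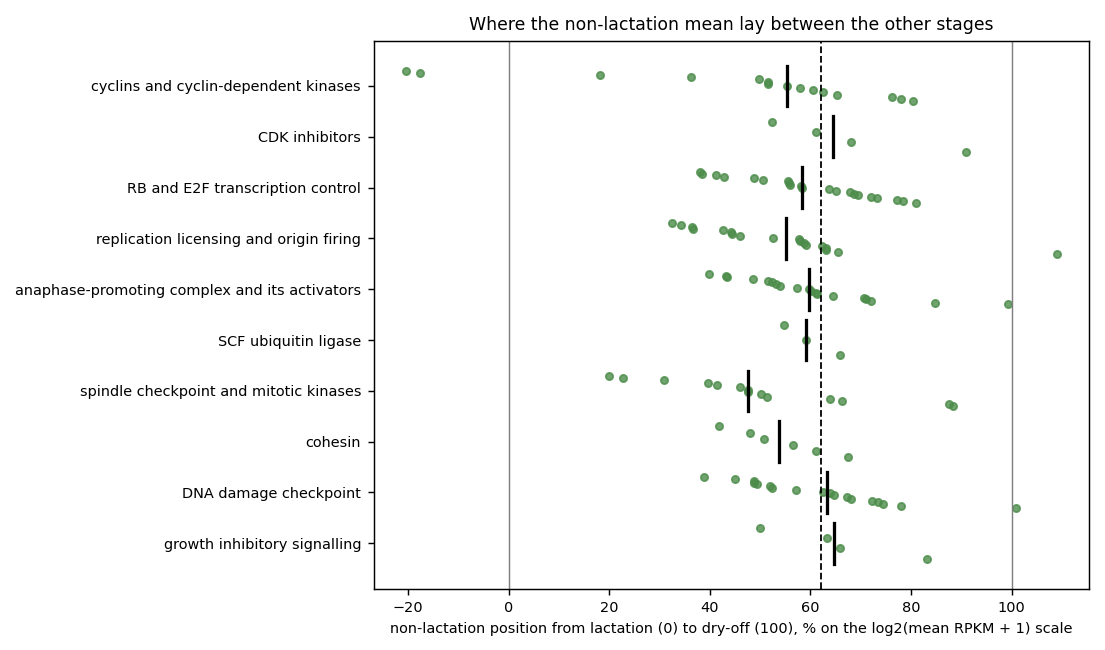
Each point is 1 of the 122 components with a higher mean in dry-off than in lactation, placed by where its non-lactation mean lay between lactation (0%) and dry-off (100%) on the log2(mean RPKM + 1) scale. Black bars are the medians of the roles and the dashed line is the median of all such components of the table, 62.1%. The 2 points below 0% are the CCND3 components.

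The authors also deposited a grouping of transcripts into expression profiles over the stages. Their profile 14 held 88 members (71.5%), beside 56.3% of all components, and profile 11 held 23 members (18.7%), beside 29.4%. The median component of profile 14 had 1.96 RPKM in lactation, 10.3 RPKM at dry-off and 5.40 RPKM in the non-lactation group, and that of profile 11 had 0.963, 5.73 and 4.20 RPKM. Profile 14 thus has the non-lactation mean farther below dry-off than profile 11. A further 3 members, CDK7 and both MAD2L1 components, were in profile 10, whose medians were 0.949, 4.84 and 1.16 RPKM, and 9 members were in none. Of the 88 members in profile 14, 72 also rose by the authors' FDR. The matching share of all components of profile 14 is not given here. Profile and FDR come from the same samples, so this overlap is not a separate result about the pathway.

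Most members also belong to other pathways of the same deposited table. Of the 123 members, 114 were listed in at least 1 other pathway. The yeast cell cycle shared 53 members, which is 43.1% of the members and 67.9% of its own components. TGF-beta signalling shared 18 members, 14.6% of the members and 26.1% of its own components. Oocyte meiosis shared 37 and ubiquitin-mediated proteolysis 23, which is 32.5% and 13.3% of their components. For each transcript the authors also deposited a number of correlated transcripts, by a criterion not given in the sources used here, with a median of 7589 for members and 7510 for all components. Of the 4 members with fewer than 2000 correlated transcripts, GADD45 comp69566_c0 had the fewest, 541, and the others were both CCND3 components and CDC7 comp18361_c1.

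Proliferation genes outside the pathway were described from a list of 26 symbols, and 26 components were found for 15 descriptions. The 26 components repeat some descriptions and do not cover all 26 symbols. MKI67, RRM2, KIF11, KIF20A, NUSAP1, TPX2, CENPA, CENPE, CENPF and FOXM1 are not represented here. Of these components 14 (53.8%, beside 63.4% of all components) rose from lactation to dry-off and none fell in the authors' deposited table, with a median difference of 2.04. Their summed means were 60.1 RPKM in lactation, 328 RPKM at dry-off and 159 RPKM in the non-lactation group. The 4 lamin components carry a description that also covers the A-type lamins of cells that do not divide, and without them 11 of 22 components rose and the sums were 42.7, 241 and 116 RPKM. A lamin component (comp35724_c0) rose from 12.9 to 69.6 RPKM (FDR 0.00527), and thymidine kinase (comp44556_c0), which salvages thymidine for DNA, from 3.40 to 22.0 RPKM (FDR 0.00622), by the authors' deposited table. Thymidine kinase comp44232_c0 and lamin comp20794_c0 did not pass (FDR 0.0543 and 0.0611, the authors' deposited table). RRM1 (comp28084_c0), the large subunit of ribonucleotide reductase, rose from 4.30 to 20.1 RPKM (FDR 0.00848), and POLA1 (comp27688_c0), a subunit of the primase polymerase, from 0.392 to 2.97 RPKM (FDR 0.00975), by the authors' deposited table. DNA topoisomerase II (comp30812_c0), which untangles the copied chromosomes, rose from 0.362 to 8.59 RPKM (FDR 0.0139), and POLD1 (comp43124_c0), a replicative polymerase, from 1.62 to 6.56 RPKM (FDR 0.0142), by the authors' deposited table. Topoisomerase II also rose in comp178383_c0 and comp44050_c0 (FDR 0.0178 and 0.0289, the authors' deposited table). Its components comp165430_c0 and comp27471_c0, the latter listed at 0 in lactation, did not pass (FDR 0.0630 and 0.150, the authors' deposited table). BIRC5 (comp18424_c0), the survivin protein of dividing cells, had 0.150 RPKM in lactation, 9.15 RPKM at dry-off and 3.01 RPKM in the non-lactation group with an FDR of 0.0658, and UBE2C (comp114456_c0), which works with the anaphase-promoting complex, had 1.20, 18.0 and 7.45 RPKM with an FDR of 0.0572, in the authors' deposited table. These 2, singled out after their values were seen, did not pass.

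Markers of other cells of the gland also had higher summed means at dry-off than in lactation, and 97.7% of all components had a higher mean there too. The counts of risen markers stand against the 63.4% of all components that rose. Macrophage markers summed to 73.1 RPKM in lactation, 743 RPKM at dry-off and 296 RPKM in the non-lactation group, and 8 of 9 components rose in the authors' deposited table. Markers of T and NK cells summed to 16.7, 302 and 103 RPKM, with 4 of 7 components risen, and those of B cells to 2.60, 43.6 and 13.8 RPKM, with 1 of 3. Fibroblast markers summed to 53.05, 727 and 509 RPKM (3 of 4 risen) and endothelial markers to 28.1, 209.7 and 134 RPKM (2 of 4 risen) in lactation, dry-off and non-lactation. The luminal epithelial markers CDH1 and EPCAM summed to 47.7, 131 and 99.5 RPKM (1 of 2 risen), and ACTA2 of the myoepithelium had 303, 733 and 489 RPKM and did not pass (FDR 0.0705, the authors' deposited table). No other symbol of the luminal and myoepithelial lists is represented here. COL1A1, COL1A2, COL3A1, TEK, CD8A, NKG7 and MS4A1 of the other lists are not represented either. ACTA2 carries the description of aortic smooth muscle actin, so it does not mark myoepithelium alone. No marker component that was found was at 0 in any stage. The median differences from lactation to dry-off were 3.13 for macrophages, 3.68 for T and NK cells, 3.17 for B cells, 3.79 for fibroblasts and 2.42 for endothelium. They were 1.77 for luminal epithelium, 1.27 for the 1 myoepithelial component, 1.66 for the cell cycle members and 1.62 for all components. The part of cell composition in the rise of the cell cycle members was not tested.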

How the data were processed

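RNA from 9 mammary samples in 3 stages, 3 per stage, was sequenced with single-end reads after poly(A) selection, per the labels' protocols. Of the programs behind the tables, the submitters' processing notes name FastQC alone, so the assembler, aligner, counting method and genome build stand as not given in the sources used here. Per the file headers, the authors deposited RPKM values as the mean of each stage. They deposited a p-value and an FDR for every comparison of 2 stages, from a test they do not name. Sequencing depth was not analysed here, and the precision it gives is unknown.

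The authors' FDR below 0.05 was used as deposited, with the direction read from the stage means, and no test of expression was run here. The foreseen limma model needs values per sample and was not used. Ratios were recomputed from the means, since spreadsheet errors and infinite values stood in the deposited log2 columns. Log2 differences used a pseudocount of 1 RPKM, and folds used none.

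The members, role lists and tests were chosen with earlier results of these data known. Gene names follow the authors' protein descriptions, of which the 59 naming 1 gene all had their symbol in the RefSeq gene table (assembly ARS1.2, used for names alone). Of 131 symbols on the 10 role lists 59 were found with a description of their own. Symbols covered by the 14 family descriptions, such as cyclin B, are not in that count. The genes named are, in each role, up to 6 with the smallest FDR for dry-off against lactation, those that did not pass but were among the 20 members of highest mean, and those lower at dry-off or listed at 0 in a stage. Any other was added after its values were seen. A member that this rule allows is not reported here. The role counts cover the transcripts of the differential table alone. Reads of near-identical genes, and of components of 1 assembly cluster, cannot be told apart. The counting functions were tested on simulated data. Python 3.11.15, numpy 2.4.6, pandas 2.3.3 and matplotlib 3.10.9 were used. Alternatives were a stricter FDR, the unadjusted p, a minimum mean, a minimum fold, every listed transcript, 1 transcript per description, other pseudocounts, and centring on the table or the ribosomal protein median.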

Additional observations from a re-analysis of the deposited data

How the results depend on the processing

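The count of members higher at dry-off than in lactation was 88. It was 30 at an FDR below 0.01 and 57 when plain ratios were centred on the table median, where 31 members passed with a ratio below that median. With the same centring on the log2(mean RPKM + 1) scale, chosen after seeing the data, the numbers were 75 and 13. With the unadjusted p it was 113, with every listed transcript 98 of 138, and with 1 transcript per description 63 of 73. Matching shares of the whole table by transcript or by description are not given here. The count was again 88 with a minimum of 1 RPKM, with at least 2-fold and when centred on the ribosomal protein median. The counts of 0 for non-lactation became 54 (higher than lactation) and 70 (lower than dry-off) at the unadjusted p and were 0 under the other alternatives run. The median log2 ratio of members between dry-off and lactation, 1.66, was 2.196 with a pseudocount of 0.1, 2.23 with none, 0.19 centred on the table median and 0.68 centred on the ribosomal protein median. Between non-lactation and lactation, 0.97 became 1.33, 1.37, 0.071 and 0.57 in the same order. Between non-lactation and dry-off, -0.75 became -0.20 and -0.15 under the 2 centrings. The table median used for centring is that of all 9131 transcripts, while each member is the transcript of highest mean in its component. Over all components the median between dry-off and lactation was 1.62 with a pseudocount of 1 RPKM, beside 1.66 for members. Without a pseudocount it was 2.25 for all components, beside 2.23 for members. Centred on this transcript median on the log2(mean RPKM + 1) scale, 4 named members that rose had negative values. These were -0.14 for ANAPC5 (comp20312_c0), -0.27 for CDC23 (comp208231_c0), -0.023 for SMC1 and -0.058 for BUB3. More of the named members that rose lay below the higher median of all components, 1.62. Examples are MDM2 with 1.52, GSK3B with 1.51 and MAD2L1 (comp23963_c0) with 1.54. Other named members, such as ABL1, SKP1, MAD2L1, RAD21, MDM2 and GSK3B, lay below the transcript median by the plain ratio alone. The FDR was not recomputed under centring. No paired analysis was possible because the deposited tables hold stage means and no values per sample, and for the same reason no replicate could be left out. Depth was not analysed here, so the low means, such as the 39 members below 1 RPKM in lactation, carry no counting interval.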
